A study of Mus musculus with 12 samples.

Results

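The genes described here are 10 markers used for hepatic stellate cells and for the myofibroblasts they can become. They were chosen by name, with no threshold on their values but with earlier results of these data known, and found among the 27179 genes of the liver count table by matching gene identifiers to symbols. Acta2, Tagln, Des and Vim encode cytoskeletal proteins, Pdgfrb is a growth factor receptor, Lrat is an enzyme of vitamin A storage, Tgfb1 is a cytokine, and Timp1, Lox and Loxl2 act on the extracellular matrix. All 10 were found, and all 10 passed the filter on low counts.

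Hepatic stellate cells lie between hepatocytes and the sinusoidal endothelium, where at rest they store vitamin A as retinyl esters made by Lrat. When the liver is injured they can lose these stores, take on contractile and cytoskeletal proteins such as α-smooth muscle actin (Acta2), and secrete collagens. TGF-β and PDGF are the best known signals for this activation, and lysyl oxidases and TIMPs respectively cross-link the matrix and slow its breakdown. Most of the markers are not restricted to stellate cells: smooth muscle expresses Acta2, Tagln and Des, and Vim, Tgfb1 and Timp1 are expressed by leukocytes, endothelium and tumour cells as well.

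RNA was sequenced from whole livers of 12 male mice (strain written C57/Bl3 in the study's methods, while the mice of this model are elsewhere said to be of mixed background), young adults, in 4 groups of 3, with 1 library per mouse. The food was either a chow diet (CD) or one low in protein (LPD), given from before the injection until the end. Each mouse received, by hydrodynamic tail vein injection with Sleeping Beauty transposase, either vector control (Vec, titled WT in the labels) or plasmids for the oncogenes, human c-MET together with a β-catenin that lacks its N-terminal part. Livers with the oncogenes are called c-MET/β-catenin or, for short, oncogene livers. The injection delivers plasmids to a part of the hepatocytes, so the stellate cells themselves are not the intended target, and every group was taken at the end point of the oncogene mice that ate CD. The labels give the tissue as liver and the cell type as hepatocyte. The extraction was from liver tissue, and transcripts of stellate cells (Lrat), macrophages (Clec4f, 62.4 ± 20.9 CPM in CD Vec, SD, n = 3) and endothelium (Stab2, 30.5 ± 12.1 CPM) were counted beside those of hepatocytes.

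Values are CPM, the counts of a gene relative to the library total, scaled by TMM, which corrects for differences in library composition. Libraries held 19476209 to 31990267 counts, so that a gene at 1 CPM had about 19.48 counts in the smallest library. A header line of the count table numbers the columns in 3 runs that the labels do not explain. Run 1 consists of replicates 1 and 2 of the CD oncogene group. Run 3 consists of replicates 1 and 2 of CD Vec with replicate 1 of LPD Vec, and the other 7 libraries make up run 2. The run is thus partly confounded with the group in every comparison. Between the LPD groups this concerns only replicate 1 of LPD Vec. Values within run 2 are therefore given beside the main results. In these bulk samples, fewer cells of a type and less RNA per cell cannot be told apart.

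In vector control livers the markers were present at low levels. Per length of transcript (RPKM, which is CPM per kilobase of exon), the highest in CD Vec were Tagln at 4.25 ± 0.204, Lrat at 4.06 ± 1.51 and Vim at 3.49 ± 0.328 (SD, n = 3). The first 3 did not differ beyond the spread of Lrat. Tgfb1 (1.79 ± 0.508), Pdgfrb (1.65 ± 0.546), Des (1.18 ± 0.157) and Acta2 (1.02 ± 0.614) followed with overlapping spreads, then Loxl2 (0.445 ± 0.111) and Timp1 (0.257 ± 0.0566), with Lox lowest at 0.0291 ± 0.0157. In CD c-MET/β-catenin livers the order by RPKM was led by Vim at 12.6 ± 6.60, Tagln at 10.6 ± 6.16 and Acta2 at 7.74 ± 5.84, and Lrat had moved from second place to second from last, at 1.52 ± 0.490. In both LPD groups Tagln, Lrat and Vim again took the first 3 places. Pdgfrb (Entrez 18596, chr18:61045127-61085067, plus strand) and Lox (Entrez 16948, chr18:52516060-52529867, minus strand) lie on the same chromosome, and the positions of the others are given where each is described.

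**Figure D1:**
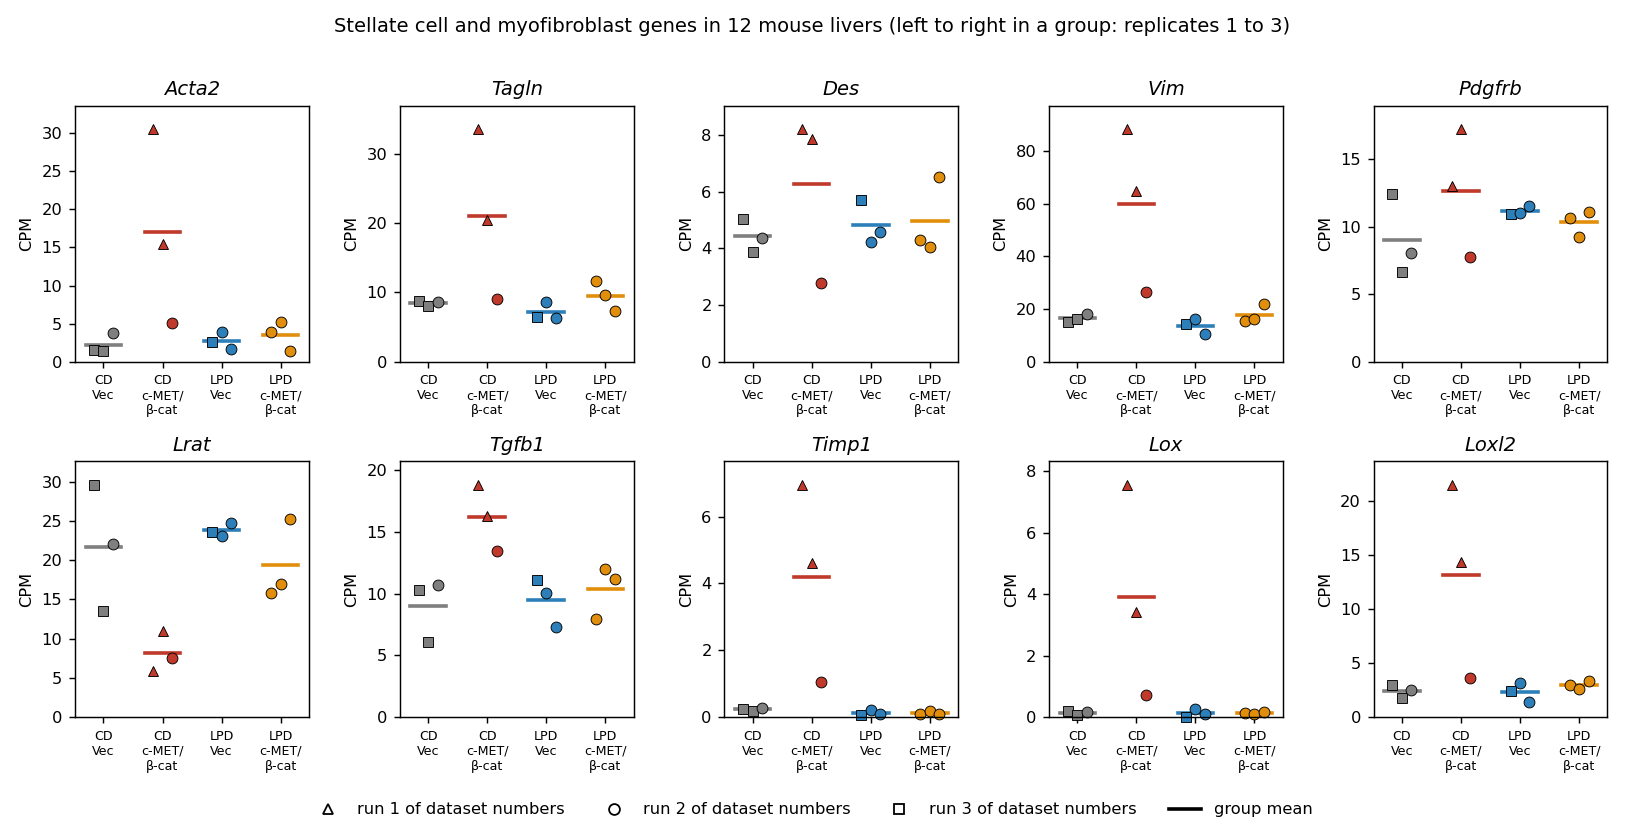
Level of each of the 10 genes in each library, in CPM on linear axes that start at 0. Points are libraries, left to right replicates 1 to 3 of each group; shapes mark the run of dataset numbers and bars the group mean. In CD c-MET/β-catenin livers the run 1 libraries (triangles) lie above the run 2 library for 9 genes; for Lrat the run 2 library lies between them.

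To ask what the oncogenes did to these genes on a normal diet, CD c-MET/β-catenin livers were compared with CD Vec livers. Of the 10 genes, 7 were higher and 1 was lower by edgeR's quasi-likelihood test with Benjamini-Hochberg adjustment, whereas 18.7% of the 13947 genes tested were higher and 16.7% were lower. The median log2 fold change of the 10 was 1.58 against -0.01 over all genes tested. The same 8 genes were those whose groups did not overlap, which held for 22.2% of all genes in the higher and 20.4% in the lower direction. The rise was uneven between the 3 oncogene livers, and it was largest in the matrix-modifying genes Lox and Timp1.

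Acta2 (Entrez 11475, chr19:34240336-34255585, minus strand, build GRCm38.p6) encodes α-smooth muscle actin, the standard marker of myofibroblasts. It was counted at 1.58, 1.36 and 3.80 CPM in CD Vec and at 30.5, 15.4 and 5.01 CPM in CD oncogene replicates 1, 2 and 3. The groups did not overlap, but replicate 3 lay close to the highest vector control. The log2 fold change was 2.91 (SE 0.69, adjusted p = 0.00686). Tagln (Entrez 21345, chr9:45929628-45936058, minus strand), which encodes the actin-binding protein transgelin, was counted at 8.81, 8.01 and 8.54 CPM in CD Vec and at 33.5, 20.5 and 9.06 CPM in CD oncogene. Replicate 3 again lay next to the controls, and the log2 fold change was 1.32 (SE 0.37, adjusted p = 0.0156). The call was lost without replicate 1 (0.80, adjusted p = 0.0697) and in a fit to the compared groups alone (1.30, adjusted p = 0.0655). Of the 50-base stretches of Tagln transcripts, 58.3% were shared with transcripts of other genes, mainly the antisense transcript Gm48529. That transcript was not found among the genes counted. Exons of the protein-coding gene Pcsk7, which had 634 to 1114 counts per library, also overlap those of Tagln on the opposite strand. The strand setting of the counting is not stated, so reads from these overlaps cannot be told apart.

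Vim (Entrez 22352, chr2:13574311-13582826, plus strand) encodes vimentin, an intermediate filament of mesenchymal cells. Its CD Vec libraries held 15.1, 16.4 and 18.2 CPM, and its CD oncogene libraries held 88.4, 65.0 and 26.3 CPM. All 3 oncogene livers exceeded all controls, and on the log2 scale the difference was 1.85 (SE 0.35, adjusted p = 0.00181). Des (Entrez 13346, chr1:75360292-75368579, plus strand) encodes desmin, the intermediate filament of muscle and of rodent stellate cells. It was counted at 5.04, 3.87 and 4.37 CPM in CD Vec and at 8.20, 7.87 and 2.77 CPM in CD oncogene, so that the oncogene livers lay on both sides of the controls. Its log2 fold change of 0.50 (SE 0.35, adjusted p = 0.292) did not pass the test, and neither did that of Pdgfrb, the PDGF receptor of stellate and mural cells, at 0.49 (SE 0.28, adjusted p = 0.195). Pdgfrb held 12.4, 6.65 and 8.02 CPM in CD Vec and 13.0, 17.2 and 7.71 CPM in CD oncogene. Among the refits that left out 1 library, both genes passed only when replicate 3 of CD oncogene was left out, with log2 fold changes of 0.85 (adjusted p = 0.0212) for Des and 0.74 (adjusted p = 0.0344) for Pdgfrb.

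Lrat (Entrez 79235, chr3:82892582-82903974, minus strand) encodes lecithin retinol acyltransferase, which makes the retinyl esters of resting stellate cells. It was the only one of the 10 to fall. Its CD Vec libraries held 29.6, 13.5 and 22.1 CPM and its CD oncogene libraries held 5.89, 11.0 and 7.48 CPM. Every oncogene liver lay below every control, and replicate 3 lay between the other two. The log2 fold change was -1.42 (SE 0.29, adjusted p = 0.00293).

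Tgfb1 (Entrez 21803, chr7:25687002-25705077, plus strand), the main profibrotic cytokine, was counted at 10.3, 6.08 and 10.7 CPM in CD Vec and at 18.8, 16.3 and 13.4 CPM in CD oncogene. Its rise was modest but the least variable among the 3 oncogene livers, with a coefficient of variation of 16.6% against 88.5% for Lox. The log2 fold change was 0.84 (SE 0.25, adjusted p = 0.0201). The call was lost without CD Vec replicate 2 (0.62, adjusted p = 0.0570) and without CD oncogene replicate 1 (0.72, adjusted p = 0.0652), and in the compared groups alone (0.82, adjusted p = 0.0696).

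Of the matrix-modifying genes, Timp1 and Lox moved most of all 10. Timp1 (Entrez 21857, chrX:20870166-20874737, plus strand), an inhibitor of metalloproteinases, had 5, 3 and 5 counts in CD Vec and 241, 113 and 28 counts in CD oncogene. Summed over the group this is 0.23 CPM in CD Vec (95% Poisson interval 0.123 to 0.394) and 4.45 CPM in CD oncogene (4.01 to 4.92); these intervals cover counting error only. The log2 fold change was 4.17 (SE 0.67, adjusted p = 0.000616). Lox, which encodes lysyl oxidase, the enzyme that starts collagen and elastin cross-linking, had 4, 1 and 3 counts in CD Vec and 262, 84 and 19 counts in CD oncogene. Its summed level was 0.142 CPM (0.0612 to 0.279) against 4.25 CPM (3.82 to 4.71), and its log2 fold change of 4.75 (SE 0.90, adjusted p = 0.00184) rests on few control counts. Loxl2 (Entrez 94352, chr14:69608692-69695834, plus strand), a relative of lysyl oxidase, held 2.95, 1.76 and 2.498 CPM in CD Vec and 21.5, 14.4 and 3.63 CPM in CD oncogene. For all 3 genes replicate 3 stood above the controls and far below replicates 1 and 2, and the log2 fold change of Loxl2 was 2.45 (SE 0.53, adjusted p = 0.00393). Of the 50-base stretches of Loxl2, 42.9% also occur in the annotated copy Gm21451, which had 0 counts in every library, and how reads that map to both were counted is not stated.

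The 250 bases before the start sites of Acta2, Vim and Lrat are shown because these genes stand for the 2 directions of change, and serum response factor (SRF), which binds CArG boxes, is known to drive cytoskeletal genes. Sequences are from RefSeq on GRCm38.p6, read on the gene's strand, and windows were found for 6 of the 10 genes. Neither the strict CArG box nor the AP-1 site (TGACTCA or TGAGTCA) was found in any of the 6 on either strand; 1.47% and 4.46% of all 32851 windows hold one. A CArG box with 1 G or C among its 6 central bases occurred in Acta2 at 2 places, -84 to -75 and -34 to -25 from the start, and in Lrat at -223 to -214; by its definition this form never overlaps the strict one, and 7.24% of all windows hold one. For Acta2, whose window reaches into a longer transcript, the 30 bases around each box are given, with the box in capitals. In Vim the capitals mark a TATA box (TATAAA, in 12.4% of windows), and in Lrat they mark the CArG-type box and then a GC box (GGGCGG, here on the other strand, in 32.7% of windows). A match of letters is a description and not a measured binding site.
Acta2, chr19:34255438-34255467: gtgctgaggtCCCTATATGGttgtgttaga
Acta2, chr19:34255388-34255417: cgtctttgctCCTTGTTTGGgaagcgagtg
Vim, chr2:13574061-13574310: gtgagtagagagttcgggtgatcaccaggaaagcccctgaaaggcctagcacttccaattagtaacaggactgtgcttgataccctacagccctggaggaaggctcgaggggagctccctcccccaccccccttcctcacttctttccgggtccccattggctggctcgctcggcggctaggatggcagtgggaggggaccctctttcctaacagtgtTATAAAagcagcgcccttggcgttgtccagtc
Lrat, chr3:82903975-82904224: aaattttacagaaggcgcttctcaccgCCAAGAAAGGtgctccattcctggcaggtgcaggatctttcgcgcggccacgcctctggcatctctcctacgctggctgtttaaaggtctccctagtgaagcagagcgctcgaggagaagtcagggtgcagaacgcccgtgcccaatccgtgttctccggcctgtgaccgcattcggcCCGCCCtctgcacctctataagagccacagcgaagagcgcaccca

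The chow effect was smaller for most genes in the fits that take the run into account. Run 1 holds only 2 CD oncogene livers, so the run and differences between livers cannot be told apart. In run 2 there is 1 CD oncogene library, replicate 3, 1 CD Vec library and 5 LPD libraries. Replicate 3 was above the other 6 libraries of its run for 5 genes (Vim, Tgfb1, Timp1, Lox and Loxl2), below them for 3 (Lrat, Des and Pdgfrb) and among them for Acta2 and Tagln. The share of all genes for which replicate 3 lay outside the other 6 was not computed, so these counts describe single genes only. Timp1 stood furthest out, at 1.05 CPM against 0.0874 to 0.26 CPM in the other 6. The sum of the 10 genes in replicate 3, 77.2 CPM, lay within the 57.9 to 86.3 CPM of the CD Vec livers, whereas replicates 1 and 2 reached 234.3 and 175.6 CPM.

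In a fit to run 2 alone, which assumes that the lone libraries vary like the other groups, Lrat was the only one of the 10 genes called on CD, with a log2 fold change of -1.57 (adjusted p = 0.0265), when 5.98% of all genes were called higher and 6.08% lower. The fold of Lrat was thus as large within the run as in all libraries. Timp1 (1.97) and Lox (2.13) kept their direction without passing the test, Vim (0.52), Loxl2 (0.52), Acta2 (0.39), Tgfb1 (0.31) and Tagln (0.07) were nearer to 0, and Des (-0.67) and Pdgfrb (-0.07) changed sign. With a term for the run, none of the 10 was called on CD at an adjusted p under 0.05, and 4.60% and 2.17% of all genes were called higher and lower. The part of the run in the chow result was not tested beyond these fits.

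**Figure D2:**
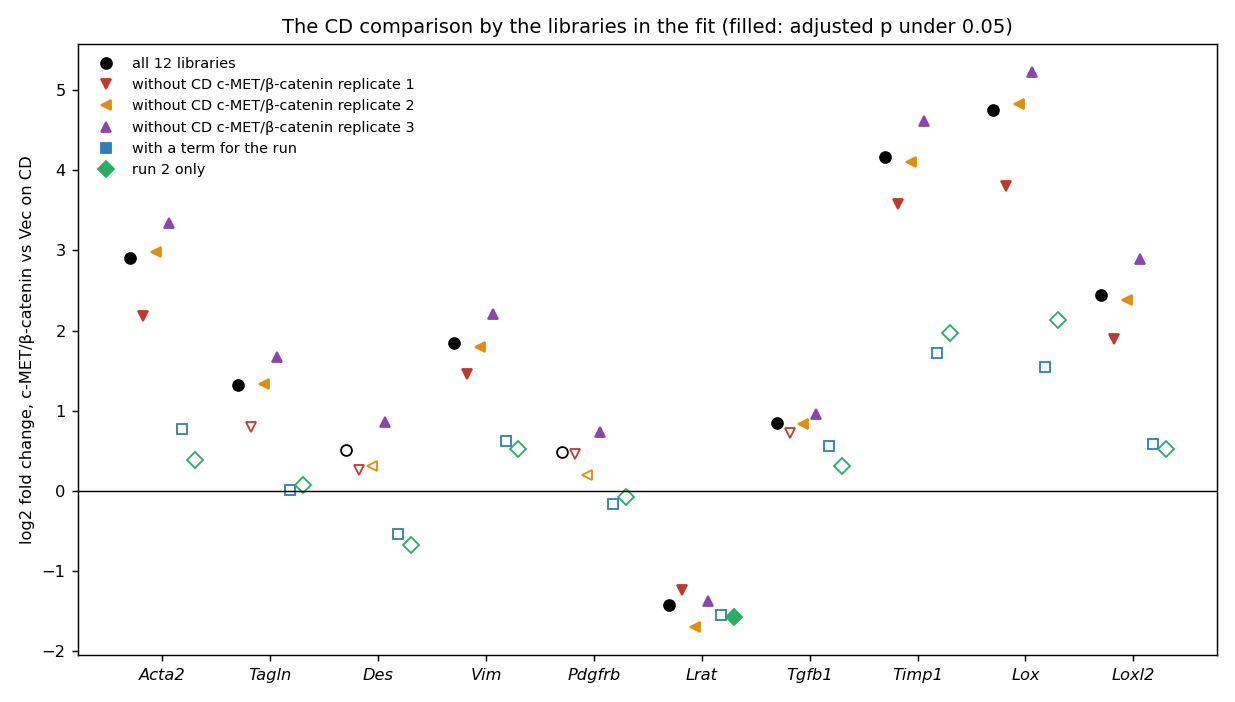
Log2 fold change of each gene on CD, c-MET/β-catenin relative to Vec (vertical axis), with all 12 libraries, leaving out each CD oncogene library, with a term for the run, and in run 2 alone; filled symbols have an adjusted p under 0.05. Leaving out 1 CD oncogene library moves the values less than the run term or the fit to run 2, which leaves out 5 libraries, except for Lrat, which stays between -1.24 and -1.70 in every fit shown.

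Ratios of counts within a library do not depend on library scaling. The ratio of Lrat to Pdgfrb, both genes of stellate cells, was 0.453, 0.64 and 0.971 in CD oncogene replicates 1, 2 and 3, and 1.49 to 2.75 in the other 9 libraries. Replicate 3, of run 2, lay between the run 1 libraries and the other 9. The ratio of Vim to Pdgfrb was 6.80, 3.78 and 3.42 in the same livers and 0.907 to 2.46 elsewhere, and that of Timp1 to Pdgfrb was 0.536, 0.268 and 0.136 against 0.0044 to 0.0325 elsewhere. Relative to Pdgfrb, 5 genes (Acta2, Vim, Timp1, Lox and Loxl2) were higher in all 3 CD oncogene livers than in any other library, 1 (Lrat) was lower, and 3 (Tagln, Des and Tgfb1) overlapped. Relative to Lrat, all 9 others were higher in those 3 livers than in any other library. Lrat itself was lower there, and the 9 include Des and Pdgfrb, which were not called. This count therefore contains the fall of Lrat and does not by itself show a rise of the others. These ratios are given as a description, with no test. The share of all genes that separate in the same way relative to Pdgfrb or Lrat was not computed.

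On LPD none of the 10 genes was called after the same injection. Of all genes, 1.15% were called higher and 0.165% lower in LPD oncogene against LPD Vec. None of the 10 had an unadjusted p under 0.05, as 1545 of the 13947 genes tested had. DESeq2 also called none, beside 2.29% of all genes higher and 0.595% lower. The groups overlapped for all 10, while 13.5% of all genes were separated in the higher and 11.7% in the lower direction. The median log2 fold change of the 10 was 0.15, against 0.01 over all genes. Acta2 held 2.59, 3.885 and 1.64 CPM in LPD Vec and 3.86, 5.26 and 1.40 CPM in LPD oncogene, a difference of 0.37 on the log2 scale (SE 0.66, adjusted p = 0.923). Vim held 14.2, 16.4 and 10.5 CPM in LPD Vec and 15.4, 16.1 and 21.9 CPM in LPD oncogene. Its difference on the log2 scale was 0.38 (SE 0.34, adjusted p = 0.808). Lrat held 23.65, 23.1 and 24.8 CPM in LPD Vec, where the 3 libraries were nearly equal, and 15.9, 16.9 and 25.3 CPM in LPD oncogene, where replicates 1 and 2 lay below all LPD controls and replicate 3 above them. Its difference on the log2 scale was -0.30 (SE 0.29, adjusted p = 0.819). Timp1 and Lox stayed at 0 to 6 counts in every LPD library, a depth at which moderate changes of these genes were not detectable. With SEs of 0.25 to 1.19 on the log2 scale, smaller effects on LPD could not be seen.

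In vector control livers none of the 10 genes was called between the diets. Of all genes, 0.186% were called higher and 0.122% lower in LPD Vec against CD Vec. None of the 10 reached an unadjusted p under 0.05, as 1377 of the 13947 genes tested did. DESeq2 called none of the 10 either, beside 1.03% of all genes higher and 1.4% lower. Their log2 fold changes lay between -0.86 for Timp1 (SE 0.91), which rests on 13 counts against 8, and 0.30 for Pdgfrb (SE 0.28). Lrat differed by 0.13 (SE 0.29, adjusted p = 0.928) and Acta2 by 0.27 (SE 0.69, adjusted p = 0.940).

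**Figure D3:**
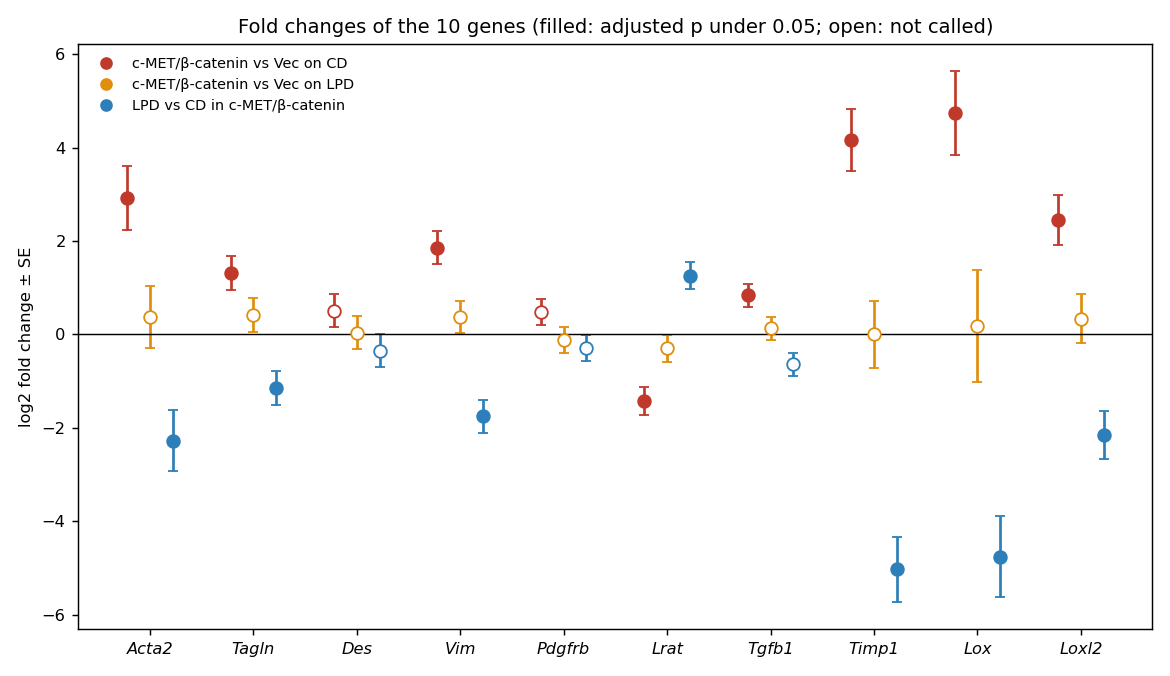
Log2 fold change (vertical axis, with SE bars) of each gene for the oncogenes on CD, the oncogenes on LPD, and LPD against CD in c-MET/β-catenin livers; filled points have an adjusted p under 0.05. All values for the oncogenes on LPD are open and lie between -0.30 and 0.41.

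Between the diets, oncogene livers differed in 7 of the 10 genes. On LPD 6 of the 10 were lower and 1, Lrat, was higher than on CD, while 11.3% of all genes were called lower and 8.66% higher. These livers on CD are the same that entered the comparison above, so this is not a second, independent observation of their levels. Markers of other cell types also differed between these groups, and their values are given with those on CD. The log2 fold changes were -5.03 for Timp1 (SE 0.70, adjusted p = 0.000993), -4.76 for Lox (SE 0.87, adjusted p = 0.00379), -2.16 for Loxl2 (SE 0.51, adjusted p = 0.0131) and -1.75 for Vim (SE 0.35, adjusted p = 0.00541). In these 4 genes, and in Tgfb1, every LPD liver lay below every CD liver, which held for 20.0% of all genes. The difference of Acta2 was -2.27 (SE 0.66, adjusted p = 0.0313) and that of Tagln -1.15 (SE 0.36, adjusted p = 0.0439), but in both the groups overlapped. LPD replicate 2 held 5.26 CPM of Acta2 against 5.01 CPM in CD replicate 3. Of 12 refits that each left out 1 library, 11 lost the call of Tagln (all but the one without CD oncogene replicate 3) and 4 lost that of Acta2. Acta2 fell to -1.53 (adjusted p = 0.124) without CD replicate 1 and to -1.89 (adjusted p = 0.101) without LPD replicate 3, and its call was also lost without CD replicate 2 or LPD replicate 1. Both calls were lost without the low count filter and in the compared groups alone. Lrat was higher on LPD by 1.26 (SE 0.29, adjusted p = 0.0114), with the 3 LPD livers all above the 3 CD livers, and the call was lost without LPD replicate 3 (1.02, adjusted p = 0.0532). Tgfb1 at -0.64 (SE 0.25, adjusted p = 0.0888; 0.0365 without CD Vec replicate 2), Des at -0.35 and Pdgfrb at -0.29 did not pass.

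Within run 2, which holds all 3 LPD oncogene livers and CD replicate 3, 2 of the 10 genes were called between the diets. Lrat was higher on LPD by 1.37 (adjusted p = 0.0255) and Timp1 was lower by -3.03 (adjusted p = 0.0251), when 4.78% of all genes were called higher and 7.10% lower. With a term for the run, Timp1 alone was called (-3.03, adjusted p = 0.0174), beside 1.27% of all genes higher and 3.16% lower. Lrat had the same difference with that term, 1.37, but was not called (adjusted p = 0.154). The other called genes were nearer to 0 in both fits and did not pass: Lox at -2.30, Vim at -0.57, Acta2 at -0.51 and Loxl2 at -0.30 kept their direction, and Tagln, like the uncalled Des and Pdgfrb, changed sign.

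Whether diet changed the oncogene effect itself was tested by the interaction, the log2 fold change on LPD minus that on CD. None of the 10 genes was called at an adjusted p under 0.05 by edgeR, where 4.49% of all genes were called in the higher and 4.42% in the lower direction. Without adjustment 6 of the 10 had p under 0.05, as had 3600 of the 13947 genes tested. Timp1 came nearest, at -4.17 (SE 1.25, adjusted p = 0.0580), followed by Vim at -1.48 (SE 0.49, adjusted p = 0.0801), Loxl2 at -2.11 (SE 0.74, adjusted p = 0.0954), Lox at -4.57 (SE 1.61, adjusted p = 0.0975), Lrat at 1.12 (SE 0.41, adjusted p = 0.105) and Acta2 at -2.54 (SE 0.94, adjusted p = 0.115). DESeq2 called 5 of them (Acta2, Vim, Timp1, Lox and Loxl2), all lower, beside 7.15% of all genes called lower and 6.62% higher. EdgeR called 6 lower without CD oncogene replicate 3, beside 4.90% of all genes, and 1, Lrat, without CD Vec replicate 2, where 1164 of 14275 genes were called in either direction. With a term for the run edgeR called 0 of the 10, beside 0.229% of all genes higher and 0.38% lower, and in run 2 alone 0, beside 1.59% and 1.11%, so that these fits called few genes of any kind. In both, most differences were much nearer to 0. Timp1 was -1.90 with the term and -2.34 in run 2, Lox -1.63 and -2.51, Acta2 -0.65 and -0.05, Vim -0.27 and -0.12, and Loxl2 -0.25 and -0.17. Lrat, at 1.25 and 1.26, was as large as in all libraries, with adjusted p = 0.359 and 0.144. A call on CD and none on LPD therefore does not by itself show that the effects on the 2 diets differ.

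Correlations across the 12 libraries were taken between sets of the 10 genes that were defined by their calls on CD. The calls come from the same libraries, so the sets favour high values among the genes called higher and negative ones with Lrat. The values are a description over libraries that share groups and runs. Pearson correlations of log2 CPM between the 7 genes called higher on CD were 0.694 to 0.973 over 21 pairs, with Timp1 and Lox the closest. Lrat correlated with each of these 7 at -0.806 to -0.539. Des and Pdgfrb correlated at 0.788 with each other, at 0.433 to 0.686 with the 7, and at -0.08 (Des) and 0.01 (Pdgfrb) with Lrat. Among 9433 other genes with a mean of at least 5 CPM, those most like Acta2 were Zswim4 (0.956), Fubp3 (0.934), Pvr (0.931), Twf1 (0.929) and Fmnl3 (0.928). Those most like Timp1, among 9434, were S100a11 (0.976), Col5a2 (0.975), Cntnap1 (0.967), Itga3 (0.964) and Krt8 (0.962).

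The markers were next set beside other genes of the same cells. Of 13 further stellate cell genes, 9 were lower and 1 was higher in CD oncogene than in CD Vec livers, beside 16.7% and 18.7% of all genes. Their median log2 fold change was -1.30, in the direction of Lrat and opposite to the 7 markers that rose. Hhip, an inhibitor of Hedgehog signalling, was lower by -3.80 (adjusted p = 9.69e-05), Vipr1, a receptor for vasoactive intestinal peptide, by -2.44 (adjusted p = 2.21e-05) and Lhx2, a transcription factor of stellate cells at rest, by -1.75 (adjusted p = 0.00830). The one that rose was Reln, which encodes the secreted protein reelin, at 1.53 (adjusted p = 0.00178). Of the 10 calls, 6 were also made within run 2, where Vipr1, Hand2, Ngfr, Pth1r and Colec11 were lower and Reln higher, and Hgf was lower as well; over all genes 6.08% were lower and 5.98% higher in that fit. With a term for the run 5 of the 13 were lower and 0 higher, beside 2.17% and 4.60% of all genes. On LPD none of the 13 was called between oncogene and Vec. Between the diets in oncogene livers 8 were higher on LPD and 1 lower, beside 8.66% and 11.3% of all genes, and 7 and 0 within run 2, beside 4.78% and 7.10%.

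**Figure D4:**
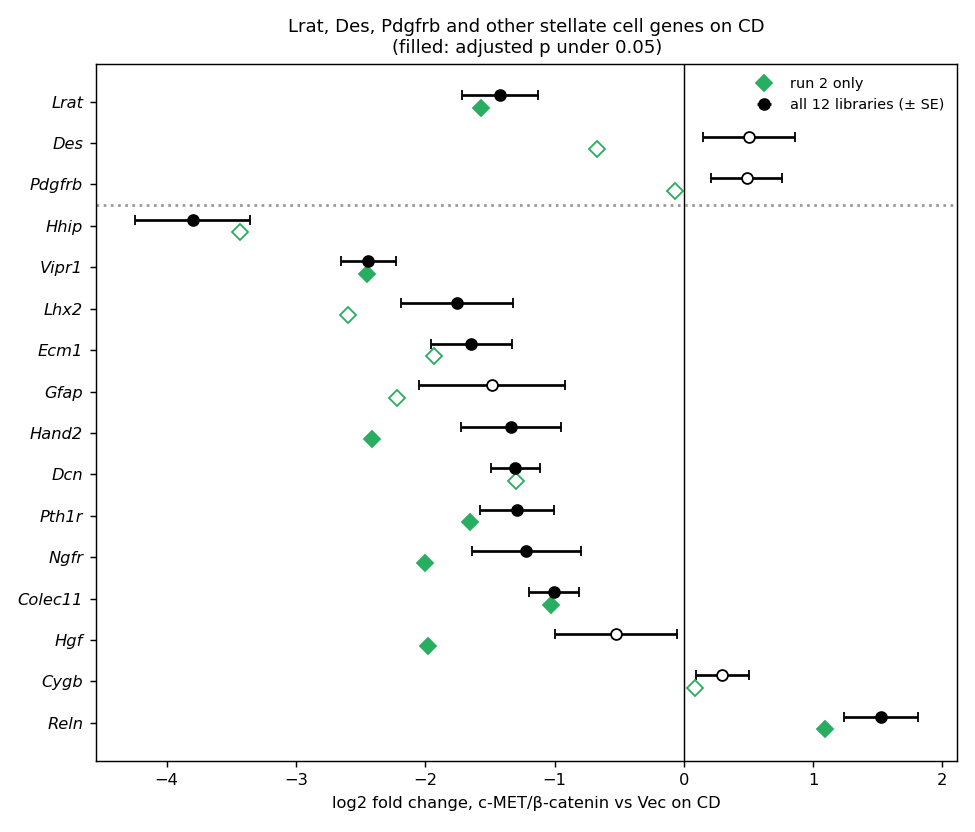
Log2 fold change on CD, c-MET/β-catenin relative to Vec (horizontal axis), for Lrat, Des and Pdgfrb (above the dotted line) and for 13 further stellate cell genes; circles with SE bars are from all 12 libraries, diamonds from run 2 alone, and filled symbols have an adjusted p under 0.05. Lrat and 11 of the 13 lie below 0 in run 2, and Reln and Cygb lie above it.

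Genes of the signals and of the matrix were examined next, where 18.7% of all genes were called higher and 16.7% lower on CD, and 5.98% and 6.08% in run 2. Of 20 further genes of TGF-β signalling, 8 were higher on CD and 2 (Eng and Smad7) lower, or 13 and 0 when libraries were scaled by their totals alone, which also moved the calls over all genes to 32% higher and 8.61% lower. The largest of these differences were those of Thbs1, an activator of the ligand, at 3.99 (adjusted p = 0.000597), and of the ligand gene Tgfb2 at 2.28 (adjusted p = 0.00956). In run 2 none of the 20 was higher and 1, Eng, was lower. Of 12 matrix genes 8 were higher, with Col1a1 at 3.92 (adjusted p = 0.000985), and 1 in run 2, the elastin gene Eln at 3.23 (adjusted p = 0.00598). Of 5 genes of PDGF signalling 3 were higher, all ligands: Pdgfc at 2.60 (adjusted p = 3.7e-05), Pdgfb at 2.27 (adjusted p = 0.000438) and Pdgfa at 1.13 (adjusted p = 0.000345). Pdgfc and Pdgfb were also called in run 2, at 3.17 and 1.79, and Pdgfc was the one gene of these lists called on LPD, at 1.40 (adjusted p = 0.0189).

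Among 9 other contractile genes that could be tested, of 12 listed, 3 were higher on CD, where 18.7% of all genes were: Tpm1 (2.19), Myl9 (1.51) and Smtn (1.13). In run 2 Tpm1 (1.99) and Smtn (0.91) were called as well. The smooth muscle genes Myh11 (0.36, adjusted p = 0.584) and Cnn1 (1.52, adjusted p = 0.244) did not pass, and Myocd had a mean of 0 CPM in both Vec groups. Of the other lysyl oxidases, Loxl4 (3.78, adjusted p = 0.000309) and Loxl1 (1.31, adjusted p = 0.00396) were higher and Loxl3 (0.15, adjusted p = 0.760) was not. Loxl4 was called in run 2 as well, at 3.42. Of 7 metalloproteinases and other TIMPs tested, 3 were higher (Mmp12, Mmp13 and Mmp14), and Timp2 (0.34) and Timp3 (-0.26) did not pass. Of these 3, Mmp12 and Mmp14 were called in run 2 and all 3 with a term for the run. Between the diets in oncogene livers, 6 of the TGF-β genes, 3 of the PDGF genes, 7 of the matrix genes, 3 contractile genes, both called lysyl oxidases and 3 metalloproteinases were lower on LPD, beside 11.3% of all genes. The TGF-β genes Eng (0.67, adjusted p = 0.00627) and Smad7 (1.01, adjusted p = 0.00968) were higher on LPD. Within run 2, 4 of these 8 calls of TGF-β genes were made as well, 2 of the 3 of PDGF genes, 2 of the 7 of matrix genes, 1 of the 3 of contractile genes, 1 of the 2 of lysyl oxidases and 2 of the 3 of metalloproteinases. With a term for the run the TGF-β calls fell to 2 and the matrix calls to 1, and the other lists kept the numbers they had in run 2.

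Some markers of other cells that express some of the same genes were called as well. On CD, where 18.7% of all genes were called higher, 2 of 3 portal fibroblast markers (Cd34 and Entpd2) and 2 of 5 cholangiocyte markers (Krt19 and Spp1) were higher, as were 4 of 8 leukocyte markers and 1 of 6 macrophage markers (Cd68). Within run 2 the calls of Krt19, Spp1, Entpd2, Cd68 and 1 of the 4 leukocyte markers (Cd8a) were made as well, and with a term for the run those of Krt19, Spp1, Entpd2, Cd34 and Cd68 and of 0 leukocyte markers. Scaled by totals alone, 4 of the 6 macrophage markers were higher, beside 32% of all genes. The summed level of the portal fibroblast markers was 17.2 to 20.6 CPM in CD oncogene and 4.95 to 7.55 CPM in CD Vec, and that of the cholangiocyte markers was 120.8 to 381.4 CPM against 36.8 to 46.3 CPM. Most of the cholangiocyte sum was Spp1, at 253 ± 131 CPM in CD oncogene and 34.7 ± 5.64 CPM in CD Vec (SD, n = 3), and Krt7 (0.33), Epcam (-0.50) and Sox9 (-0.41) did not pass the test. Leukocyte markers summed to 21.8 to 25.1 CPM against 8.24 to 11.4 CPM, with no overlap. Summed macrophage markers (185.3 to 331.7 against 97.8 to 232.2 CPM), endothelial markers (106.4 to 170.3 against 96.3 to 196.3 CPM), mural cell markers (4.57 to 11.1 against 5.74 to 13.2 CPM), mesothelial markers (3.14 to 7.26 against 3.52 to 9.17 CPM) and hepatocyte markers (110200 to 129800 against 112500 to 115800 CPM) overlapped. None of the 5 mesothelial and none of the 2 mural cell markers was called on CD by edgeR or by DESeq2 in all libraries. In run 2 the mural cell marker Rgs5 differed by -1.70. By edgeR 1 endothelial marker (Clec4g) and 1 hepatocyte marker (Ttr) were lower and 1 hepatocyte marker (Trf) was higher. DESeq2 called 2 endothelial markers lower and 2 macrophage markers higher, beside 15.4% and 17.5% of all genes. Between the diets in oncogene livers the same portal fibroblast and cholangiocyte markers were lower on LPD, Entpd2 by -1.19, Cd34 by -1.42, Krt19 by -2.53 and Spp1 by -2.58. Cd68 (-0.90), the leukocyte markers S100a8 (-2.28) and S100a9 (-2.21), the mesothelial marker Msln (-1.53) and the hepatocyte markers Apoa1 (-0.86) and Trf (-0.99) were lower as well, and the endothelial marker Clec4g was higher (1.38). Within run 2 the calls of Krt19, Spp1, Entpd2, S100a8, Trf and Clec4g were made as well. In LPD oncogene livers the summed portal fibroblast markers (7.77 to 9.05 CPM), cholangiocyte markers (40.7 to 52.7 CPM) and hepatocyte markers (72330 to 107300 CPM) lay below all 3 CD oncogene livers, and the sums of leukocyte markers (13.9 to 23.3 CPM) overlapped. Between LPD oncogene and LPD Vec livers, summed macrophage markers (208.9 to 362.4 against 156 to 194.1 CPM) did not overlap. Neither did mural cell markers (10.65 to 11.63 against 14.05 to 16.97 CPM). The sums of the other cell types overlapped on LPD, and no marker of any of these cells was called there. No list of these cells was at 0 in any library, and the part of these cells in the levels of Acta2, Vim, Timp1 and the other markers was not tested.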

How the data were processed

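The deposited file holds whole-number read counts per gene, not normalized, which the authors made with HISAT2 on mm10 and featureCounts under Entrez identifiers; the submitters' notes also name DESeq. Versions, strand setting and handling of multiply mapped reads are not given in the sources used here. The labels describe depletion of ribosomal RNA and the study's methods a stranded mRNA kit. Column names call the chow groups HPD; the chow of the labels was kept. Of 27179 identifiers 93.1% were matched to a symbol.

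The counts were fitted in R 4.3.3 with edgeR 4.0.16 (TMM factors 0.864 to 1.12, filterByExpr, robust quasi-likelihood fit, 1 coefficient for each of 4 groups, all 12 libraries), leaving 13947 genes. Adjusted p is Benjamini-Hochberg over all of them, and genes under 0.05 were called. SE was derived from the log2 fold change and its F statistic. RPKM divides CPM by exon length in GENCODE M21, and correlations use log2 CPM with a prior count of 2. The code was tested on simulated data. Alternatives were DESeq2 1.42.0, other scalings and filters, the compared groups alone, a replicate block, runs, and each library left out. P-values rest on the spread between livers within groups, estimated over all 4 groups together and moderated with that of other genes. They do not measure the spread of the 3 livers of a single group.

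Genes were named by rule: the 10 markers, up to 4 called genes of each list by size of change, genes a result turns on, and the 5 genes most correlated with Acta2 and with Timp1. Members and lists were chosen with earlier results of these data known. The counts of the other lists in run 2, with a run term and by other scaling were chosen after seeing the data. Some listed genes are not reported here and were left out of the counts of their lists.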

Additional observations from a re-analysis of the deposited data

How the results depend on the processing

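The run and single libraries limited the results most. Of the 10 genes, 8 were called on CD, but 0 with a term for the run of dataset numbers and 1 in run 2 alone. Between the diets in oncogene livers 7 were called, but 1 with the run term, 2 in run 2 and 4 without LPD oncogene replicate 3. The interaction had 0 calls, but 5 by DESeq2. Leaving out each library gave 6 to 10 calls on CD, 4 to 7 between the diets in oncogene livers and 0 to 6 for the interaction, and 0 on LPD and for diet in Vec. The counts stayed within 1.5 times under other scalings and filters and in the compared groups alone (6 on CD and 5 between the diets), where Timp1 and Lox could not be fitted on LPD or in Vec. Scaling by totals alone raised the median of all genes on CD to 0.278 and changed no call among the 10.

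Same-numbered libraries did not deviate together: over 18 pairs correlations were -0.183 to 0.167, 2 of them over 0.1, and 3 of 12 libraries correlated best with their own number. A replicate block gave 8 calls on CD, 7 between the diets in oncogene livers and 0 otherwise, and it changed no call of a gene.

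Signs changed in 49 of 1036 refits of single genes, none of them called in the refit. On CD, Des was -0.54 with the run term and -0.67 in run 2, and Pdgfrb -0.16 and -0.0705. Between the diets in oncogene livers the run term and run 2 gave 0.0683 and 0.0676 for Tagln, 0.84 and 0.83 for Des and 0.42 and 0.42 for Pdgfrb. For the interaction they gave 0.36 and 0.26 for Tagln, 0.65 and 0.84 for Des, and the run term 0.0794 for Pdgfrb. On LPD, Timp1 was -0.00932 with RLE size factors, -0.0113 by DESeq2, -0.18 with the run term and -0.36 in run 2, and Lox was -0.0875 with the run term and -0.37 in run 2. For diet in Vec, run 2 gave -0.46 for Acta2, -0.0052 for Des, -0.31 for Tgfb1 and 0.21 for Lox, and totals alone gave 0.0491 for Loxl2. Leaving out single libraries on LPD gave -0.0573 to 0.75 for Acta2, -0.21 to 0.17 for Des, -0.0237 to 0.29 for Tgfb1, -0.40 to 0.69 for Timp1 and -0.37 to 1.40 for Lox, and for diet in Vec -0.0883 to 0.89 for Acta2, -0.0111 to 0.23 for Des, -0.12 to 0.42 for Lrat, -0.15 to 0.23 for Tgfb1, -1.41 to 0.36 for Lox and -0.34 to 0.21 for Loxl2. The cause was not tested.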
